A study of Mus musculus with 17 samples.

Results

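A set of 10 core clock and clock output genes was followed in liver of mice lacking alpha-fetoprotein (Afp): Per1, Per2, Per3, Cry1, Cry2, Arntl, Clock, Nr1d1, Dbp and Tef. Their probes were found by platform gene symbol. Of these 10 genes, 7 had at least 1 probe on the cDNA array, with 10 probes between them, out of 9030 named genes and 20794 probes in all. Per2, Nr1d1 and Tef had 2 probes each, Per1, Per3, Cry1 and Dbp had 1 each, and no probe carried the symbol or gene ID of Cry2, Arntl or Clock. The tested groups were livers of 6 adult male AFP1 kO mice aged 17 weeks and of 6 AFP1 kO embryos, 3 male (embryos 1 to 3) and 3 female (embryos 4 to 6). Each mutant was hybridised against pooled wild-type liver RNA of its own age: a pool of 6 adult males aged 17 weeks, or a fetal pool for which the labels list 4 animals. The fetal pool is called male beside embryos 1 and 2 and female beside embryos 3 to 6, although the animals listed are the same. Embryos are labelled as embryonic day 7.5, a stage at which a mouse has no liver yet, so their true age is uncertain. No wild-type animal was hybridised alone, so every test set the mutants' spread against a fixed pool and left out the spread between wild-type animals. The labels do not give the hour at which any animal or pool member was killed, nor its light cycle or feeding.

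The mammalian clock is a loop of transcription. CLOCK and BMAL1, the product of Arntl, bind E-box elements and switch on the Per and Cry genes, whose proteins return to the nucleus and block them. The nuclear receptor REV-ERB alpha, encoded by Nr1d1, is switched on by the same pair and represses Arntl, while the proline- and acidic-amino-acid-rich transcription factors DBP and TEF carry the rhythm to output genes through D-box elements. In liver of mice kept in a light cycle, Nr1d1, Dbp, Tef and the Per genes peak between the light phase and the early night, whereas Cry1 peaks later and Arntl, Npas2 and Nfil3 peak towards the end of the night. Dbp and Nr1d1 have some of the widest daily swings of all liver transcripts. The question addressed was whether mutant animals and pool differed in these genes, read by whether the daytime and dusk genes moved together. Their peaks spread from the light phase to the early night, so a shift in sampling time can move them in opposite directions. Whether they share a sign therefore cannot decide on such a shift.

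Matches to the letters of E-box and D-box elements are shown here as a description of the members' promoters. Sharing an element does not place genes in the same phase, since Cry1 peaks later than Per1 and Tef and also held the E-box. Binding to them was not measured. Promoter sequences, 250 bases before to 50 after each start, came from RefSeq on build GRCm38.p6 and matched 6 of the 7 measured genes (8 windows). The E-box letters CACGTG, which read the same on both strands, occurred in 4 of the 8 windows, those of Cry1, 1 of the windows of Per1 and both of Tef, and in 7.15% of all 32851 windows. The D-box letters TTATGTAA, searched on both strands, occurred 2 times in the Per3 window and in none of the other 7 windows, against 0.938% of all windows. The windows of Dbp and Nr1d1 held neither word. Capitals mark the E-box in the first 4 stretches and the D-box in the last 2, which overlap, and each is written 5′ to 3′ on the strand of its gene.
Per1, chr11:69098748-69098823, plus strand: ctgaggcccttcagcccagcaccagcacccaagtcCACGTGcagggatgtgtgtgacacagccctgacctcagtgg
Cry1, chr10:85185074-85185149, minus strand: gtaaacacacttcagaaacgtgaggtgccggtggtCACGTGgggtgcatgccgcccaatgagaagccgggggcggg
Tef, chr15:81802511-81802586, plus strand: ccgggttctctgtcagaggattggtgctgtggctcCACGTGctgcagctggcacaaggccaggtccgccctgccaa
Tef, chr15:81811241-81811316, plus strand: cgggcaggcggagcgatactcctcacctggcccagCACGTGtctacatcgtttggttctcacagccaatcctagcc
Per3, chr4:151044828-151044905, minus strand: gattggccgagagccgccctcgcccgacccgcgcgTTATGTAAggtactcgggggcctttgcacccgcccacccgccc
Per3, chr4:151044781-151044858, minus strand: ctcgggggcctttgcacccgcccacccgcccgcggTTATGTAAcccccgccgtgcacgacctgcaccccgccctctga

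Values are log2 ratios as deposited, taken as mutant over pool. Of the adults, 5 were measured on 2 arrays each, with the mutant labelled in Cy5 on one and in Cy3 on the other, adult 5 had only the Cy5 array, and all embryos had the mutant in Cy5, which gave 11 adult and 6 fetal arrays. Arrays held 20078 to 20697 values, with medians of -0.105 to 0.085, and a ratio gives no level, so neither liver markers nor depth could be checked from it. Fetal Afp averaged -8.40 ± 0.23 (SD, n = 6; limma adjusted p = 1.25e-08), and adult Afp averaged -0.025 ± 0.19 (n = 6). By fetal Afp the sign of arrays labelled with the mutant in Cy5 was set. Probes 19612 and 19709 both read -8.75 in embryo 1 and -8.446 in embryos 4 and 5. With values repeated in this way, the size and SD of fetal Afp are uncertain, though its sign is not. For the arrays with the mutant in Cy3 the direction is not stated, and mutant over pool was assumed. All 445 values beyond 10 were positive with the mutant in Cy5 and all 140 were negative with the mutant in Cy3. Opposite-dye arrays correlated at a median rho of -0.286 within an animal and of -0.263 between animals. These values cannot settle the direction, since dye effects and mutant differences are not separated in them. Adult means are therefore also given with the Cy3 arrays turned in sign. Fetal values were read 11 rows further down than their names, since probes of 1 gene then correlated best among 121 offsets tried. The rho was 0.0867 over 5055 pairs of probes, against 0.0067 as deposited. The best other offset gave 0.0682, so the margin was narrow. Because whole liver was profiled, fewer cells of a type and less RNA per cell cannot be told apart.

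In the adults, ratios of all 7 measured clock genes averaged within 0.20 of 0 on the log2 scale and none passed the test across all features (limma, adjusted p of 0.644 to 0.982). The background was 0 of 17039 features, 0%, so the absence of calls among the members matched that of the whole array. At an unadjusted p under 0.05, 1 of the 7 members, Per2, stood among 1314 features, 7.71% of those tested. Of the members, 4 of 7 averaged above 0, with a median of 0.047, beside 51.9% of all features above 0 and a median of 0.0081.

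Among the Period genes, which encode the repressing arm of the loop, Per2 had ratios of 0.27, 0.25, 0.13, 0.25, 0.15 and 0.10 in adults 1 to 6. All 6 animals lay above 0 and within a narrow band, and the mean was 0.19 ± 0.073 (SD, n = 6; adjusted p = 0.644). That SD was at the 0.381 percentile of all features, yet the 2 arrays of an animal differed in Per2 by a median of 0.560, so the animal means agreed more closely than the arrays behind them. Taken singly, the mean was 0.14 ± 0.25 with the mutant in Cy5 (4 of 6 arrays above 0) and 0.27 ± 0.30 with the mutant in Cy3 (4 of 5 above 0). Turning the Cy3 arrays put Per2 at -0.030 (adjusted p = 0.876).

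Per1, which light and hormonal signals also induce directly, had ratios of -0.63, -0.16, 0.49, 0.23, 0.90 and 0.072 in adults 1 to 6. Its animals lay on both sides of 0, with a mean of 0.15 ± 0.53 (95% interval -0.30 to 0.60, adjusted p = 0.817). With signs as deposited, Per1 was the member whose paired arrays agreed best, with a median difference of 0.239, though adult 2 read -0.431 and 0.112. The gap between adults 1 and 3 was wider than that median. Adult 5 had no second array. By orientation it averaged 0.12 ± 0.58 with the mutant in Cy5 and 0.037 ± 0.42 with the mutant in Cy3, and turned it averaged 0.12 (adjusted p = 0.61). Without adult 5 the mean was 0.00060, and without adult 1 it was 0.31.

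Per3 had ratios of 0.72, -0.20, 0.53, 0.43, -0.36 and -1.34 in adults 1 to 6. In all, 3 animals were above 0 and 3 below, with a mean of -0.037 ± 0.77 (adjusted p = 0.969) and an SD at the 89.9 percentile of all features. With signs as deposited, adult 6 was low on both of its arrays, at -1.91 with the mutant in Cy5 and -0.77 with the mutant in Cy3. Adult 1 was high on both, at 0.37 and 1.06. Without adult 6 the mean was 0.22. After turning the Cy3 arrays, Per3 lay below 0 in all 6 animals, at a mean of -0.36 (95% interval -0.60 to -0.11, adjusted p = 0.0721).

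Cry1, the late-phase repressor that binds the CLOCK and BMAL1 complex, had ratios of 0.35, -0.054, -0.19, -0.16, 0.23 and 0.38 in adults 1 to 6. Of the animals, 3 lay above 0 and 3 below, and the mean was 0.093 ± 0.26 (95% interval -0.18 to 0.36, adjusted p = 0.814). In every adult with both arrays, the 2 arrays had opposite signs as deposited, and so the same sign once the Cy3 arrays are turned. Adult 1 gave -0.63 with the mutant in Cy5 and 1.34 with the mutant in Cy3. The others disagreed the other way, at 0.307 and -0.415 in adult 2 and 0.179 and -0.564 in adult 3. Adult 4 gave 0.215 and -0.537, and adult 6 gave 1.12 and -0.36. Turned, Cry1 averaged 0.18 (95% interval -0.31 to 0.67, adjusted p = 0.565).

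**Figure D1:**
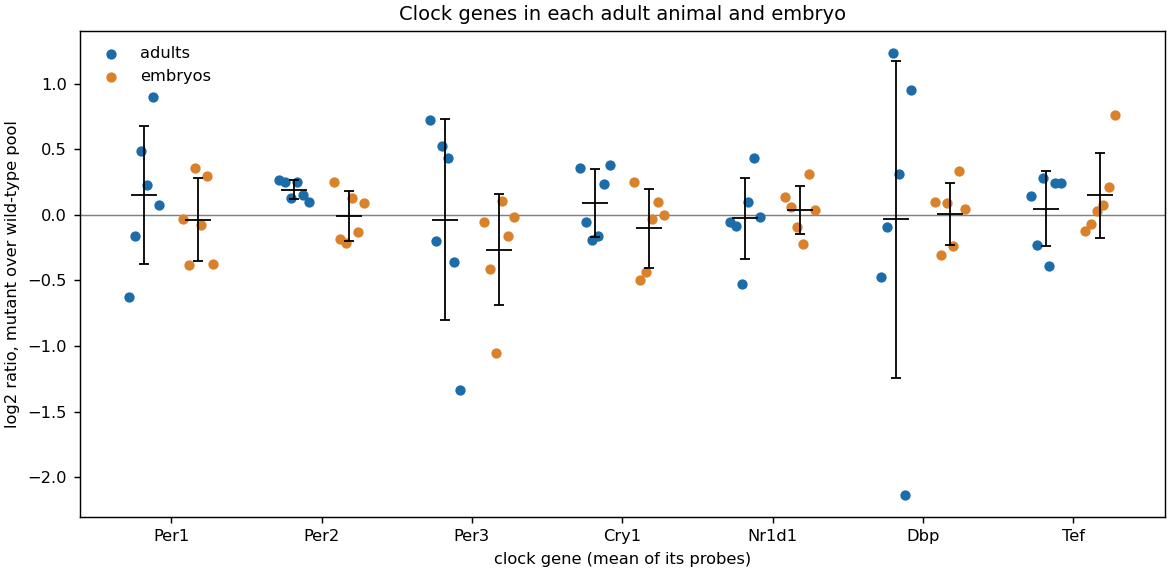
Log2 ratio of mutant over wild-type pool (vertical axis) for the 7 measured clock genes in each adult (left of each pair, 6 animals, arrays of an animal averaged) and each embryo (right, 6 animals), with the mean and SD. Both ages straddle 0 for every gene but adult Per2, and the adults of Dbp and Per3 spread widest.

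Nr1d1 had ratios of -0.056, -0.088, -0.53, 0.096, 0.43 and -0.020 in adults 1 to 6. The mean was -0.027 ± 0.31 (95% interval -0.33 to 0.27, adjusted p = 0.954), with 2 animals above 0 and 4 below. This mean joined 2 probes of the gene that did not behave alike. With the mutant in Cy5, probe 2652 gave 1.06, 1.13, -0.075, 1.39, 0.67 and 0.98 in adults 1 to 6, and with the mutant in Cy3 it gave -1.16, -1.04, -0.74, -0.91 and -1.85 in adults 1, 2, 3, 4 and 6. The orientations did not overlap, with means of 0.86 ± 0.51 (n = 6) and -1.14 ± 0.43 (n = 5). How many of all probes had orientations without overlap was not counted. Fitted by probe in limma, each orientation passed by itself and in the opposite direction (adjusted p = 0.0398 and 0.0279). Those fits called 1530 of 20559 probes with the mutant in Cy5 and 1001 of 20253 with the mutant in Cy3. No other member probe passed in either. The difference between orientations of probe 2652, set against 19811 probes measured on both, was at the 98.8 percentile in size. Probe 16713 of the same gene averaged -0.22 ± 0.64 with the mutant in Cy5 and 0.068 ± 0.35 with the mutant in Cy3, and its orientations overlapped.

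The direction given to the Cy3 arrays therefore decided whether probe 2652 was called. As deposited, its 2 orientations cancelled to 0.0098 (limma by probe, adjusted p = 0.986). After turning, the probe averaged 0.96 (95% interval 0.61 to 1.32, adjusted p = 0.0071), in a fit that called 2347 of 20771 probes, 11.3%, of which 2142 were higher and 205 lower. In that same fit probe 16713 averaged -0.12 (adjusted p = 0.599), so the gene's probes disagreed under that reading too. In the embryos, which have only the Cy5 orientation, probe 2652 averaged 0.23 ± 0.28 and probe 16713 averaged -0.16 ± 0.22 (n = 6 each; adjusted p = 0.281 and 0.382).

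Dbp, an output factor with a wide daily swing, had ratios of -0.47, -0.095, 1.23, 0.31, -2.13 and 0.95 in adults 1 to 6. The animals fell on both sides of 0, with a mean of -0.035 ± 1.21 (SD, n = 6) and an SD at the 95.7 percentile of all features. The 95% interval of the mean, -0.98 to 0.92, left room for a fold between 0.505 and 1.89 (limma adjusted p = 0.982). That interval is not adjusted for the number of features tested, so shifts beyond it could also have gone uncalled. The arrays behind the animals agreed in part, with signs as deposited. Adult 3 gave 1.44 with the mutant in Cy5 and 1.02 with the mutant in Cy3, while adult 6 gave -0.57 and 2.47. Adult 5, the lowest, had 1 array, and adult 2 had a value on 1 array of 2. Without adult 5 the mean was 0.39, and without adult 3 it was -0.29.

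Tef, the related factor, had ratios of 0.14, -0.23, 0.28, -0.39, 0.24 and 0.24 in adults 1 to 6, a mean of 0.047 ± 0.29 (95% interval -0.24 to 0.33, adjusted p = 0.913). Its probe 8968 followed the dye orientation as the first Nr1d1 probe did, though less widely, with a mean of 0.53 ± 0.33 with the mutant in Cy5 and -0.32 ± 0.19 with the mutant in Cy3, and all 5 animals with both arrays had the higher value in Cy5. Probe 13774 averaged 0.070 ± 0.34 and -0.28 ± 0.91 in these orientations. After turning, Tef lay above 0 in all 6 animals at a mean of 0.30 (95% interval 0.073 to 0.52, adjusted p = 0.0956).

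**Figure D2:**
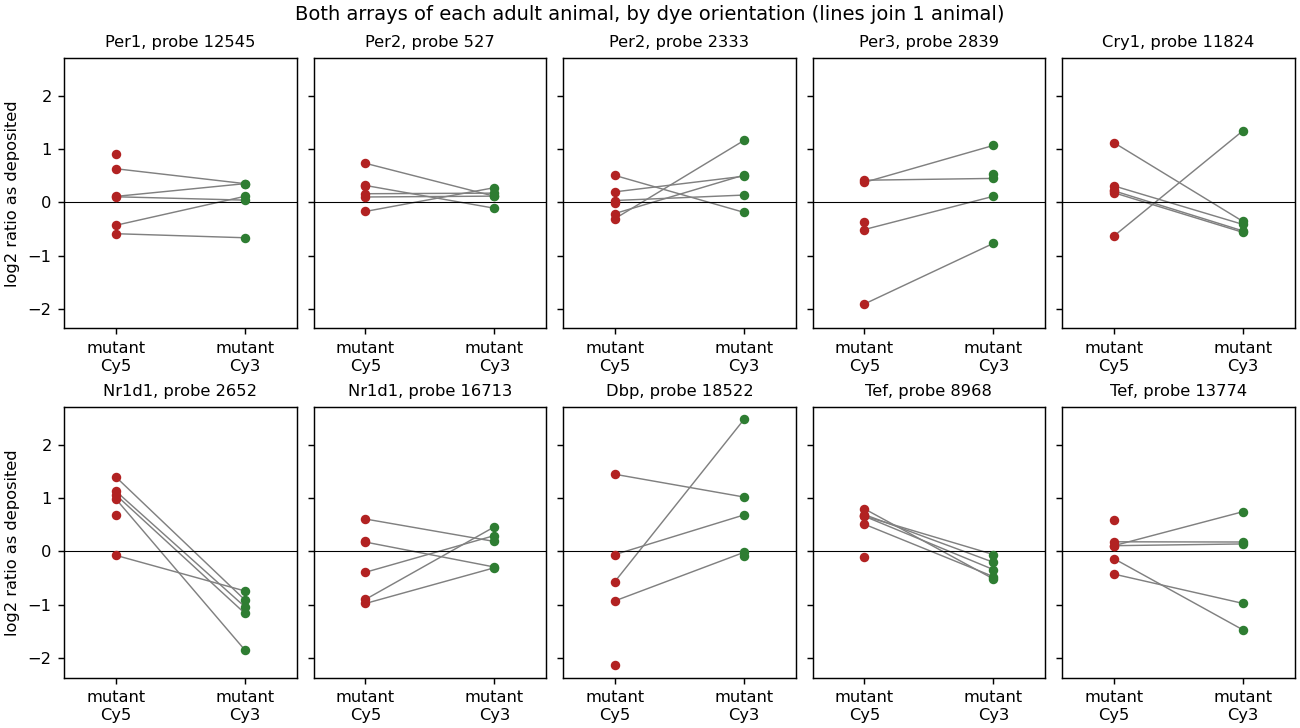
Log2 ratio as deposited (vertical axis) on both arrays of the adults, mutant labelled in Cy5 or in Cy3 (horizontal axis), 1 panel for each of the 10 probes, with a line joining the 2 arrays of an animal. Nr1d1 probe 2652 lies near 1 in Cy5 and near -1 in Cy3, Tef probe 8968 shows a smaller step in the same sense, and Dbp and Per3 are higher in Cy3 in most animals.

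With the Cy3 arrays turned, 0 of the 7 members passed at the level of genes, against 1760 of 17039 features, 10.3%, of which 1603 were higher and 157 lower. That turn also moved the median of all features to -0.092, from which Per3 at -0.36, Nr1d1 at 0.42 (adjusted p = 0.0784), Tef at 0.30 and Dbp at -0.70 (adjusted p = 0.189) stood apart in both directions. With the mutant in Cy5 alone, 0 of 7 members passed against 6.55% of features, and with the mutant in Cy3 alone 0 of 7 passed against 4.19%. Under the turned reading the daytime and dusk genes did not share a sign: Per1, Nr1d1 and Tef averaged above 0, and Per2, Per3 and Dbp below.

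**Figure D3:**
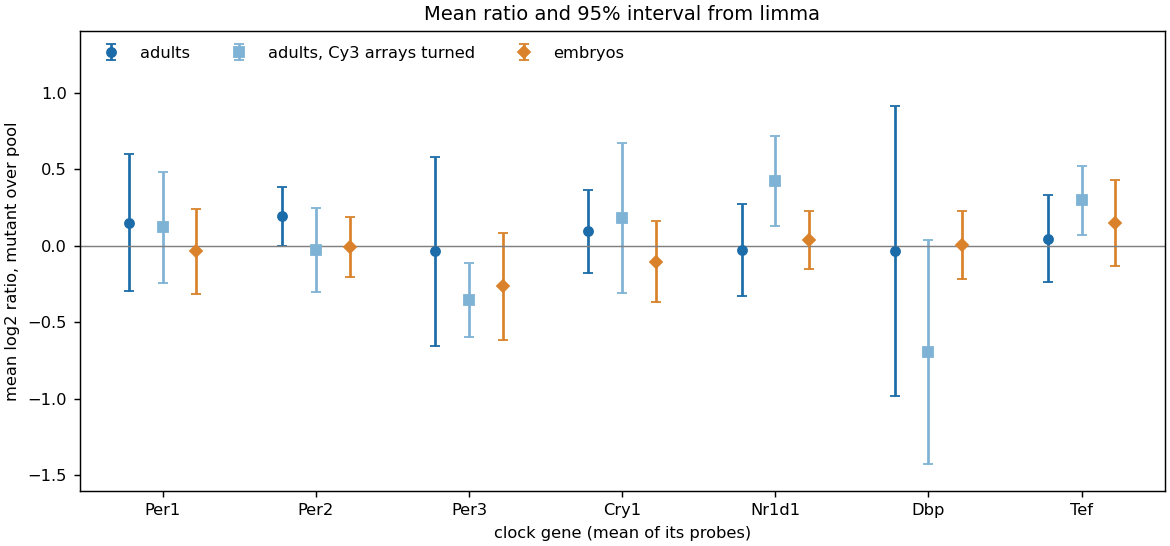
Mean log2 ratio with its 95% interval from limma (vertical axis) for each measured clock gene in adults as deposited, in adults with the arrays of the mutant in Cy3 turned in sign, and in embryos. As deposited, the intervals of 6 of the 7 genes hold 0 in adults and that of Per2 starts at it, all 7 hold 0 in embryos, and turning moves Nr1d1, Tef, Per3 and Dbp most.

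In the embryos, none of the 7 members passed either (limma, adjusted p of 0.352 to 0.983), where 26 of 17242 features did, 0.151%. No member had an unadjusted p under 0.05, against 20.8% of all features, and 3 of 7 averaged above 0 with a median of -0.010, beside 51% of features and a median of 0.0046. Dbp, so wide among the adults, had ratios of 0.098, -0.31, 0.093, -0.24, 0.34 and 0.045 in embryos 1 to 6, a mean of 0.0045 ± 0.24 with a fold interval of 0.859 to 1.17. Nr1d1 averaged 0.037 ± 0.18, Per1 -0.037 ± 0.32, Per2 -0.010 ± 0.19 and Cry1 -0.10 ± 0.30, all with embryos on both sides of 0 (n = 6 each).

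Per3 and Tef were the fetal members with 1 embryo far from the others. Per3 had ratios of -0.053, -0.41, -1.06, 0.10, -0.16 and -0.016 in embryos 1 to 6, with 5 of 6 below 0 and a mean of -0.27 ± 0.43 (adjusted p = 0.352). Without embryo 3 the mean was -0.11. Tef had ratios of -0.12, -0.072, 0.025, 0.077, 0.21 and 0.76, a mean of 0.15 ± 0.32 (adjusted p = 0.513), and without embryo 6, which was high on probe 8968 at 1.60, it was 0.025.

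Subtracting the adult dye profile (the difference between orientations divided by 2, averaged over 5 animals) from the embryos brought 2 members past the threshold, Dbp at 0.54 (adjusted p = 0.00653) and Nr1d1 at -0.38 (adjusted p = 0.0125). That fit called 4986 of 16440 features, 30.3%, and it treats a profile measured on 5 animals as known exactly. For Dbp, the profile of -0.53 rested on 4 animals, of which 1 had the higher value in Cy5. Under the names as deposited, without the move of 11 rows, 0 of 7 fetal members passed, and 5 of the 7 means took the other sign.

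Adults and embryos were compared on the arrays with the mutant in Cy5. None of the 7 members passed the test (limma, adjusted p of 0.464 to 0.872), against 23 of 16314 features called, 0.141%, and 20.2% with an unadjusted p under 0.05, where the members had 0 of 7. The groups overlapped for every member, where they did not for 2.29% of all features. The widest difference was that of Dbp, which averaged -0.45 ± 1.31 in adults (n = 5) and 0.0045 ± 0.24 in embryos (n = 6), a difference of -0.45 with an interval of -1.49 to 0.59. Cry1 averaged 0.24 ± 0.55 in adults and -0.10 ± 0.30 in embryos, a difference of 0.34 with an interval of -0.19 to 0.87.

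Between female and male embryos, none of the 7 members passed the test (limma, adjusted p of 0.998 to 1), against 2 of 17212 features, 0.0116%, and 3.18% with an unadjusted p under 0.05, where the members had 0. Tef was the 1 member whose groups did not overlap, at 0.35 ± 0.36 in females and -0.056 ± 0.074 in males (n = 3 each; difference 0.41, adjusted p = 0.998), beside 9.59% of all features whose groups did not overlap, so 1 of 7 is no result about the members. Per3 had the widest difference, 0.48, at -0.025 ± 0.13 in females and -0.51 ± 0.51 in males. The label of the pool changed along with sex on 5 of the 6 arrays, so sex and pool label cannot be told apart on those arrays.

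A single value per animal was formed to describe clock phase. Genes that peak at different hours can cancel in such a mean, so a mean near 0 cannot decide on a shift. The planned contrast, daytime and dusk genes minus Arntl and Clock, could not be formed without probes for that pair, so the mean of the 6 daytime and dusk genes (Per1, Per2, Per3, Nr1d1, Dbp and Tef) is given alone and as a description. In adults 1 to 6 it was -0.0052, -0.087, 0.36, 0.15, -0.13 and 0.00087, a mean of 0.048 ± 0.18 with 3 of 6 animals above 0. In embryos 1 to 6 it was 0.047, -0.22, -0.15, -0.038, 0.14 and 0.089, a mean of -0.021 ± 0.14, also with 3 of 6 above 0. By orientation the adult mean was 0.041 ± 0.26 with the mutant in Cy5 (2 of 6 above 0) and 0.093 ± 0.14 with the mutant in Cy3 (4 of 5 above 0), and turned it was -0.041 ± 0.12 (3 of 6 above 0). The measure nearest to the planned one subtracted Npas2 and Nfil3, and was chosen after seeing the data. As deposited it was 0.064, 0.029, 0.65, 0.67, 0.48 and -0.23 in adults 1 to 6, a mean of 0.28 ± 0.37 with 5 of 6 above 0. Turned, it averaged -0.053 ± 0.39 with 3 of 6 above 0. In embryos, with Nfil3 alone subtracted, it averaged -0.12 ± 0.23 with 2 of 6 above 0.

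In none of the 12 animals did all 6 daytime and dusk genes share a sign. Since the genes peak at different hours, this cannot decide on a shift in sampling time. Of these genes, 5 lay above 0 in adults 3 and 4 and 4 of 6 in adults 5 and 6, but in adult 5 Per1 was at 0.90 and Dbp at -2.13, and in adult 6 Dbp was at 0.95 and Per3 at -1.34. Adults 3 and 4, with the highest daytime means, had Cry1 at -0.19 and -0.16. Npas2, the late-night partner that can stand in for CLOCK, was at -0.48 and -1.24 in them. Their Cry1 arrays read 0.179 and 0.215 with the mutant in Cy5, and -0.564 and -0.537 with the mutant in Cy3. Npas2 read -0.102 and -1.536 in Cy5, and -0.861 and -0.942 in Cy3. Both Cry1 signs, and the Npas2 sign of adult 3, thus depend on the direction taken for the Cy3 arrays. Adult 2 also had Cry1 and Npas2 below 0, at -0.054 and -0.22, with a daytime mean of -0.087. Its Cry1 arrays read 0.307 in Cy5 and -0.415 in Cy3. Adult 5, with the lowest daytime mean, had Npas2 at -0.33 and Cry1 at 0.23. That mean was low through Dbp, measured on 1 array. The other daytime and dusk genes of adult 5 read 0.90, 0.15, -0.36, 0.43 and 0.24. Paired Cry1 arrays differed by a median of 0.752, wider than the Cry1 value of adult 2. Neither adult 2 nor adult 5 can therefore decide whether low later-phase genes went with a high daytime mean. Nfil3, a repressor that competes with DBP and TEF for the D-box and peaks late at night, was at -0.11 in adult 3, 0.20 in adult 4 and -0.89 in adult 5. Npas2 had no fetal value, since its row lies among those left unnamed.

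**Figure D4:**
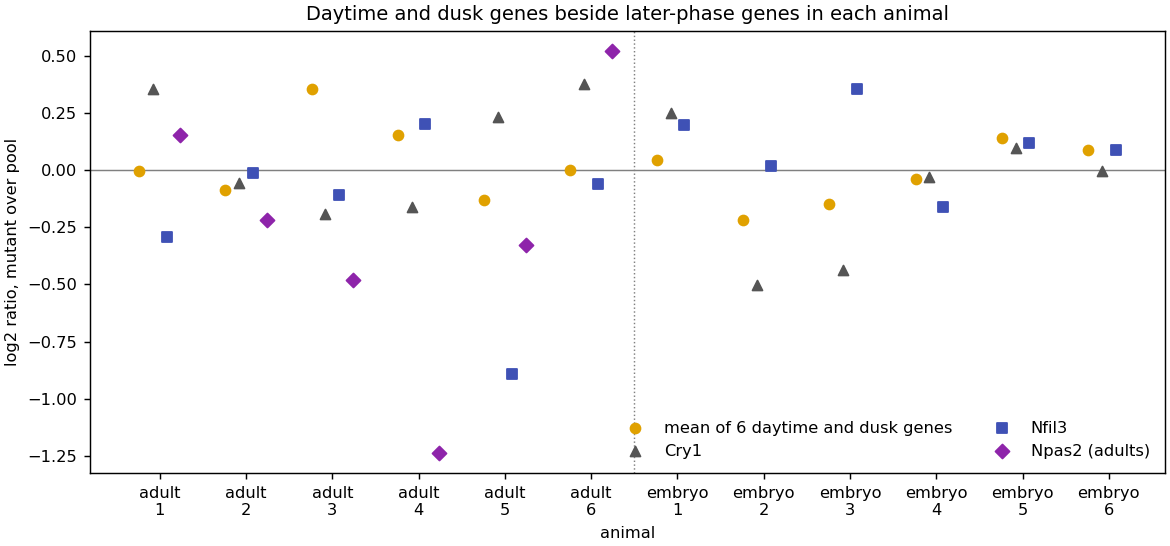
Log2 ratio of mutant over pool (vertical axis) in each adult (left of the dotted line) and embryo (right) for the mean of the 6 daytime and dusk genes, for Cry1, for Nfil3 and, in adults, for Npas2. The daytime mean stays between -0.22 and 0.36 in all 12 animals. As deposited, adults 2, 3 and 4 have both Cry1 and Npas2 below 0, though their Cy5 arrays have Cry1 above 0. The daytime mean is below 0 in adult 2 and above 0 in adults 3 and 4.

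Across the 6 adults the members were loosely tied. Of 21 pairs of members, 6 had a Pearson r above 0 and the median was -0.224, from -0.818 for Nr1d1 with Dbp to 0.613 for Per2 with Per3. Across the 6 embryos, 15 of 21 pairs were above 0 with a median of 0.151, from -0.483 for Per1 with Per3 to 0.778 for Per2 with Cry1. These are descriptions over 6 animals of 1 age, which share a pool and the dye effects of their arrays. Over all 12 animals, the named genes most like Per2 among 8290 were Nemp1 (r = 0.834) and Frmd8 (r = 0.827), those most like Nr1d1 were Bmp7 (r = 0.887) and Ormdl2 (r = 0.869), and those most like Dbp were Itgb2 (r = 0.948) and Trim7 (r = 0.942), none of them a clock gene of the lists used here.

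The wider clock had no call in adults as deposited. Of 22 other clock genes listed, 13 were tested, 7 averaged above 0 and 6 below, none passed in either direction, 0 had an unadjusted p under 0.05, and their median was 0.015 beside 0.0081 for all features. Turned, 2 of the 13 averaged above 0 and 11 below, with a median of -0.14 beside -0.092 for all features. As deposited, Csnk1d, a kinase that marks PER proteins for degradation, averaged -0.43 ± 0.58 (adjusted p = 0.649), Npas2 -0.27 ± 0.60 (adjusted p = 0.73) and Nfil3 -0.19 ± 0.38 (adjusted p = 0.717). Rora, the activator that opposes REV-ERB on Arntl, averaged -0.14 ± 0.20 (adjusted p = 0.717). The turned means were -0.081 for Csnk1d, 0.18 for Npas2, -0.16 for Nfil3 and -0.067 for Rora. Nr1d2, which encodes REV-ERB beta, averaged 0.022 ± 0.51 with opposite orientations like the first Nr1d1 probe, 0.58 ± 0.69 with the mutant in Cy5 and -0.81 ± 0.31 with the mutant in Cy3. After turning, Nr1d2 averaged 0.69 and was called (adjusted p = 0.0306), the 1 other clock gene of 13 that was, in a fit that called 10.3% of all features. In the embryos 12 of these genes were tested, 8 averaged above 0 and 4 below, and none passed.

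Genes that the liver clock drives were read from a list of 29, of which 15 were tested in adults. Of these, 5 averaged above 0 and 10 below, none passed, 1 had an unadjusted p under 0.05 (7.71% of all features did), and the median was -0.028. Alas1, the first enzyme of haem synthesis, averaged -0.39 ± 0.48 (adjusted p = 0.644), and Slc45a3 -0.30 ± 0.28 (adjusted p = 0.642). Turning the Cy3 arrays put Alas1 at -0.10 and gave Slc45a3 the other sign, at 0.18. In the embryos 14 were tested, 8 above 0 and 6 below, with a median of 0.042, none passed and 3 had an unadjusted p under 0.05, a share close to the 20.8% of all features.

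Systemic cues that set the liver clock were covered by 3 more lists. Of 9 genes of temperature and heat shock rhythms, 8 were tested in adults, 2 averaged above 0 and 6 below, none passed, 2 had an unadjusted p under 0.05 (7.71% of all features did) and the median was -0.20. The co-chaperone Dnaja1 averaged -0.63 ± 0.64, below 0 in 6 of 6 adults, and Dnajb1 -0.33 ± 0.28 (adjusted p = 0.639 for both). Turned, they averaged -0.44 (adjusted p = 0.281) and -0.49 (adjusted p = 0.0322). Of 12 glucocorticoid-responsive genes, 7 were tested, 5 above 0 and 2 below, none passed, 2 had an unadjusted p under 0.05 and the median was 0.032. Tat, the tyrosine aminotransferase that glucocorticoids induce, averaged -0.89 ± 0.44 and lay below 0 in 6 of 6 adults and in both orientations, at -0.96 with the mutant in Cy5 and -0.70 with the mutant in Cy3 (p = 0.000786, limma adjusted p = 0.639). That match of orientations holds for the signs as deposited, and turned Tat averaged -0.31 (adjusted p = 0.347). Other genes of this list went the other way as deposited. Cebpd averaged 0.60 ± 0.46 (n = 4; limma adjusted p = 0.639) and Mt1 0.39 ± 0.50 (n = 6; limma adjusted p = 0.644). Turned, they averaged 0.34 and 0.26. Of 17 feeding and fasting genes, 10 were tested, 3 above 0 and 7 below, none passed at either level, and the median was -0.065. Scd1, a fatty acid desaturase, averaged -0.51 ± 0.997 (adjusted p = 0.689), and turned it averaged -0.035 (adjusted p = 0.863).

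In the embryos the same 3 lists had no call either. The median was 0.029 for 7 heat shock genes, 0.25 for 6 glucocorticoid-responsive genes and 0.33 for 10 feeding and fasting genes. Of the last, 8 averaged above 0 and 6 had an unadjusted p under 0.05, beside 20.8% of all features. The nearest to the threshold were Mt1, a metallothionein, at 1.02 ± 0.40, and Scd1 at 0.64 ± 0.19 (n = 6 each; adjusted p = 0.0504 for both).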

How the data were processed

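The authors deposited 1 table of 20794 rows and 17 arrays whose values are read as log2 ratios of the 2 channels; the base was inferred from their range. Per the labels' protocols, liver RNA was labelled indirectly with Cy3 or Cy5 and mixed with a wild-type pool in the other dye. The genome build, image analysis, background correction and normalization were not given in the sources used here.

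Platform annotation gave 12771 probes 1 symbol each, 0 probes several and 8023 probes none. Probes of a gene were averaged, an unnamed probe stood alone, and arrays of an animal were averaged. The fetal value of each probe up to 20000 was read 11 rows below its name, and 794 fetal rows stayed unnamed. Ratios were used without further centring. Linear models (R 4.3.3, limma 3.58.1, lmFit then eBayes) were fitted over all features with at least 4 values, with Benjamini-Hochberg adjusted p under 0.05 as the threshold, and were tested on simulated data. The tests were adults against 0, embryos against 0, adults minus embryos and females minus males. With a pool on every array, 0 is the pool's level, and the number of arrays limits precision.

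Members, lists and rules were chosen with earlier results of these data known. All measured members were named, with Afp, up to 4 genes of each other list with the smallest adult p, and for Per2, Nr1d1 and Dbp the 2 genes most correlated with it. Nr1d2 and the animal values of Npas2 and Nfil3 were singled out after their values were seen. Alternatives were the sign and the dye of the arrays, names as deposited, the dye profile, centring, values beyond 10, missing values, blocks, the pool label and leaving out each animal. Chosen after seeing the data were the daytime mean alone, that mean with Npas2 and Nfil3 subtracted or without Nr1d1 probe 2652, and fits by single probe.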

Additional observations from a re-analysis of the deposited data

Results flagged for a closer look

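In all, 5 values stood apart from the others of their group by Dixon's criterion, in 55 groups tested, where chance flags about 1 in 20. Tef probe 8968 read 1.60 in embryo 6, with the next embryo at 0.33, and -0.11 in adult 5 with the mutant in Cy5, with the next adult at 0.51. Cry1 read 1.34 in adult 1 with the mutant in Cy3, with the next adult at -0.36. Bhlhe41, a clock repressor of the wider list, read 2.98 in embryo 6, with the next embryo at 0.066. Afp read 0.34 in adult 6, with the next adult at -0.0023.

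Afp was also the 1 gene named here whose ratio differed between the ages: it averaged -0.11 ± 0.23 in adults with the mutant in Cy5 and -8.40 ± 0.23 in embryos (n = 6 each), a difference of 8.29 (limma adjusted p = 1.45e-12). The size of that difference is uncertain, since fetal Afp values repeated exactly between probes. No clock gene differed between the ages by the same test.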

How the results depend on the processing

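No member was called in any of the 4 comparisons with 1 animal left out. A pool without single wild-type animals, 6 mutants a group, an unstated direction for the Cy3 arrays and no hour of sampling limit every value here, and effects within the intervals given were not detectable.

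With the Cy3 arrays turned, 1760 features were called in adults, Per2 averaged -0.030 and Nr1d1 0.42, and of single probes 2333 of Per2 averaged -0.16 and 13774 of Tef 0.20. With the mutant in Cy5 alone 1106 were called and Nr1d1 averaged 0.32. With the mutant in Cy3 alone 699 were called, and Per3 averaged 0.28, Cry1 -0.11, Dbp 0.81 and Tef -0.30. In the 5 animals with both orientations Per3 averaged 0.028 and Dbp 0.39. With animals as a random block 1 feature was called and Dbp averaged 0.27.

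In the embryos, names as deposited gave Per2 0.027, Per3 0.19, Nr1d1 -0.16, Dbp -0.044, Tef -0.47 and a daytime mean of -0.18. With the dye profile subtracted, 2 members and 4986 features were called, with Per2 at 0.056, Per3 at 0.045, Nr1d1 at -0.38 and Tef at -0.16. Centring gave Dbp -0.0023. Leaving out values beyond 10 gave 83 features, and requiring a value in every embryo gave 61.

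For adults minus embryos, means over both orientations called 9 features, with Per3 at 0.23, Nr1d1 at -0.063 and Tef at -0.10. Names as deposited called 1579 features, 9.38%, and 1 member, Tef at 0.77 (adjusted p = 0.0064). Values beyond 10 left out gave 42. The array numbers did not pair adults with embryos, since deviations of same-numbered arrays correlated at 0.0146, 0.00754 and -0.00255. With the array number as a replicate block, 10 features and 0 members were called, with Per1 at -0.34, Per3 at 0.49, Cry1 at -0.020, Nr1d1 at -0.049 and Dbp at 0.042. For females minus males, names as deposited gave Nr1d1 -0.31, the female pool alone gave 25 features and Dbp -0.046, and values beyond 10 left out gave 0 features. The adult daytime mean minus Npas2 and Nfil3 was 0.28, with 5 of 6 animals above 0, and -0.053 with the Cy3 arrays turned as well.

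Leaving out 1 animal at a time, called features ranged over 2 to 5 in embryos, 4 to 1254 for adults minus embryos (1254 without adult 1, 79 without embryo 5) and 1 to 12 for the sexes. Adult means ranged over -0.19 to 0.22 for Per3, -0.12 to 0.073 for Nr1d1, -0.29 to 0.39 for Dbp and -0.00045 to 0.14 for Tef. Fetal means ranged over -0.12 to 0.032 for Per1, -0.062 to 0.031 for Per2, -0.018 to 0.088 for Nr1d1 and -0.062 to 0.066 for Dbp. Per3 ranged over -0.34 to 0.24 for adults minus embryos. Female minus male differences ranged over -0.22 to 0.15 for Per1, -0.0076 to 0.23 for Per2, -0.13 to 0.14 for Nr1d1 and -0.059 to 0.23 for Dbp. The cause of these shifts was not tested.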

Other observations

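In all, 6 genes of the lists were called in adults once the Cy3 arrays were turned in sign, in a fit that called 10.3% of all features. They were 1 of 13 other clock genes, and 1 higher and 1 lower of 15 clock output genes. The other lists had 1 of 8 heat shock, 1 of 7 glucocorticoid-responsive and 1 of 10 feeding and fasting genes. These calls are near the share of all features, so they are no result about the lists. Besides Nr1d2, these were Insig2, which holds back sterol synthesis, at 0.74 (as deposited -0.090), Coq10b, a coenzyme Q binding protein, at -0.45 (-0.024), Dnajb1 at -0.49 (-0.33), the sulfotransferase Sult1a1 at 0.70 (-0.026) and the lipase Pnpla3 at 0.98 (0.22). Insig2 and Sult1a1 had opposite signs in the 2 readings, the other 4 had the same sign, and none of the 6 was called as deposited.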
